A study of Mus musculus with 19 samples.

Results

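The carboxylesterase (Ces) genes described here were Ces1b, Ces1c, Ces1d, Ces1e, Ces1f, Ces1g, Ces2a, Ces2e, Ces3a and Ces3b, which are 10 of the 31053 genes in the deposited count table. They were chosen by name, with earlier results of these data known, and each was found by its Ensembl identifier. Counts came from 3′ end RNA-seq of whole liver from male C57BL6J mice that were 6 to 8 weeks old at the start. The study asked how hepatocyte delivery of miR-34b/c changes a liver injured by thioacetamide (TAA), a hepatotoxin that causes fibrosis. The labels name PBS alone as the agent of the control group (n = 5). Both other groups received TAA in rising doses over 12 weeks and adeno-associated virus of serotype 8 after 10 weeks, and their livers were taken 4 weeks after the virus. The AAV-GFP group (n = 7) received a virus carrying eGFP. The AAV-miR-34b/c group (n = 7) received miR34b and miR34c together, which the paper describes as a combination of separate vectors. In both groups the TBG promoter, which is active in hepatocytes, drove expression. Whether the PBS mice received a vector is not stated in the labels, so that in any comparison with PBS the part of TAA and that of a vector cannot be told apart, while both groups of TAA-treated mice carried a vector.

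Carboxylesterases are serine hydrolases that split esters, thioesters and amides, and the liver holds most of them in the lumen of the endoplasmic reticulum of hepatocytes. They activate or inactivate ester drugs and pesticides, and several also hydrolyse stored triacylglycerol, so that its fatty acids can be used for very low density lipoprotein (VLDL) or for oxidation. In the mouse the family has expanded by tandem duplication, so that several closely related genes lie side by side.

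All 10 genes lie on chromosome 8 of the GRCm38 (mm10) assembly. The 6 Ces1 genes follow each other from Ces1b to Ces1g on the minus strand, between positions 93056728 and 93337308, and Ces2a, Ces2e, Ces3a and Ces3b lie on the plus strand between 104734003 and 105093929. In the GENCODE annotation Ces1d overlaps Gm45909 on the same strand, and Ces3a overlaps Gm45724 on the opposite strand. Whether the counting used the strand is not given in the sources used here, so reads of these overlapping genes may be mixed. The coding sequences were most alike between Ces3a and Ces3b, with 95.3% identity, followed by Ces1b and Ces1c with 88.8%, Ces2a and Ces2e with 83.4% and Ces1d and Ces1g with 81.7%. The 3′ ends, where these libraries were read, differed more. Over the last 300 bases of the transcript, Ces3a and Ces3b were 47.1% identical and Ces2a and Ces2e 48.4%, whereas Ces1b and Ces1c were still 88.8% identical. Of the 501 stretches of 100 bases, the read length, within the last 600 bases of each transcript, 19 were shared between Ces1b and Ces1c and 34 of Ces3a also occurred in a transcript of Ces3b, whereas the ends of the other 7 genes, Ces3b included, shared no such stretch with another annotated gene. The levels of Ces1b, Ces1c, Ces3a and Ces3b are therefore less certain than those of the other genes, since the way the counting treated shared reads is not given in the sources used here.

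Promoter sequences are shown for genes that the results turn on, from 250 bases before to 50 bases after the start site, taken from the RefSeq promoter table (GRCm38.p6), which holds 8 promoters for 7 of the genes and was not used for Ces1d, Ces1f and Ces3a. Capitals mark letters of the motifs searched on both strands, which were AGGTCA and AGTTCA (nuclear receptor core sites), TGACNNNGC (core of the antioxidant response element), GTTAAT, TTGCNNAA (C/EBP) and TATAAA (the core promoter box bound by TBP).
Ces1b promoter, chr8:93079891-93080190, minus strand: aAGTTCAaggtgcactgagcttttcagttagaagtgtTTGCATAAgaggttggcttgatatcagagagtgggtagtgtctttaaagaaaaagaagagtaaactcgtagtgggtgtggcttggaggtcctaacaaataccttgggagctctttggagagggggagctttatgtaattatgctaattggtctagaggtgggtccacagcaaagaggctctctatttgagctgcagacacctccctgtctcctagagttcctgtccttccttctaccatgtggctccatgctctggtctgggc
Ces1c promoter, chr8:93131234-93131533, minus strand: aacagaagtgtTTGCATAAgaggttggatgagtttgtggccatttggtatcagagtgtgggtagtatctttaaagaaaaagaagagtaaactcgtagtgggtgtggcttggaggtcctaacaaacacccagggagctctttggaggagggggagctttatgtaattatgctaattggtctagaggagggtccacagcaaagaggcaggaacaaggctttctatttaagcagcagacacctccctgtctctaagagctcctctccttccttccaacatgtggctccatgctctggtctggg
Ces2a promoter, chr8:104733753-104734052, plus strand: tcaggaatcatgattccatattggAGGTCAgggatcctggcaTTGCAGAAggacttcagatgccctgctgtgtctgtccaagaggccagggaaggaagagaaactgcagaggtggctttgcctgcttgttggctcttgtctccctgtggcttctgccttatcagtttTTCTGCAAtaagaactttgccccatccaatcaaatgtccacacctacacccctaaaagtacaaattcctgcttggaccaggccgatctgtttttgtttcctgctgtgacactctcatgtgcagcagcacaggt
Ces2e promoter, chr8:104926010-104926309, plus strand: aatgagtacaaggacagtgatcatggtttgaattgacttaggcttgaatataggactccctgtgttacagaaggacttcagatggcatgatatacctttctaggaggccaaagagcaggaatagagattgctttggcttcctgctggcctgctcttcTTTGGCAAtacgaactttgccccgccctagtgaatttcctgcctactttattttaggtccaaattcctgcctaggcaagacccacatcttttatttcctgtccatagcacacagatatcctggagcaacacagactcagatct
Ces3b promoter, chr8:105083505-105083804, plus strand: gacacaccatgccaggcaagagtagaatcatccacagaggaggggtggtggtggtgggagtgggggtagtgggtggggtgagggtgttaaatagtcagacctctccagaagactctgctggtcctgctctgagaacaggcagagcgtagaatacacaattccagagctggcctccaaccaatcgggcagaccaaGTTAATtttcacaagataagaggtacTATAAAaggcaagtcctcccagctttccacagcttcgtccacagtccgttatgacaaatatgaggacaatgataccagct

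Ces1b and Ces1c are shown because they were the lowest and one of the highest of the genes, although these promoters were 78.0% identical. The second start listed for Ces1b gave 49.9%. Both hold the same C/EBP letters, TTGCATAA. Ces2a and Ces2e are shown because Ces2e was called in 2 of the 3 comparisons below and Ces2a in none, and their promoters were 54.9% identical. The windows of the 2 Ces1b starts lie 77 bases apart, share 223 bases and hold the same sites, so these are counted once per gene. TTGCNNAA was found for 4 of the 7 genes (Ces1b, Ces1c, Ces2a and Ces2e), and for 12.2% of 27025 genes with a promoter of the same 300 bases (10.8% of all 32851 promoters). TATAAA was found in the promoters of Ces1g and Ces3b and in 13.6% of all promoters, GTTAAT in that of Ces3b alone among the 8 and in 7.10% of all, and TGACNNNGC in none of the 8 and in 12.4% of all. AGGTCA was found in that of Ces2a and in 16.3% of all, and AGTTCA in both windows of Ces1b and in 14.0% of all. A match is a description of letters in this window and not evidence of binding.

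Of the microRNAs delivered, miR-34b is shown for its seed (bases 2 to 8, in capitals), from the RefSeq table of the same build, where it lies at chr9:51103610-51103632 on the minus strand.
mmu-miR-34b-5p: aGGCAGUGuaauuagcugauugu
The letters that pair with this seed, CACTGCC, were not found in the 3′ untranslated region of any of the 10 genes, and were found in that of 2999 of 21028 protein-coding genes (14.3%), taking for each the transcript with the longest such region. The sequence of miR-34c was not used here, and the levels of both microRNAs were not analysed.

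Library totals ranged from 2214073 to 4145454 counts in PBS, from 2463842 to 4383805 with AAV-GFP and from 2717503 to 5208405 with AAV-miR-34b/c. Each of the 11 hepatocyte markers examined was measured in every comparison, and their summed level was 96738 to 164000 CPM, that is counts scaled per library to a common total over the 19 libraries. Within groups, 6 pairs of libraries (PBS 1 and 4, PBS 3 and 5, AAV-GFP 1 and 2, and AAV-miR-34b/c 1 and 2, 3 and 4, and 5 and 7) resembled one another most, with a coefficient of variation beyond counting noise of 0.0729 to 0.130, against 0.195 to 0.446 in the 46 remaining pairs. The labels number all libraries as biological replicates and each was taken as 1 sample, but whether the libraries of a close pair came from separate mice is not given in the sources used here. If they did not, n is smaller than stated and the p-values below, the exact ones included, are too small. Each carboxylesterase call below is also given with close pairs summed and taken as 1 sample each, by 2 definitions. The planned one, a coefficient under 0.2, takes 9 pairs, joins AAV-GFP libraries 1 to 4 into 1 and leaves 3 samples of PBS, 4 of AAV-GFP and 4 of AAV-miR-34b/c. The other, chosen after seeing the data, takes only the 6 pairs and leaves 3, 6 and 4. AAV-miR-34b/c libraries 1 and 2, which are one of these pairs, stood apart from the other 5 of their group in Ces1d, Ces1e, Ces2e, Ces3a and Ces3b, and results that rest on them are given with and without them.

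Levels are given as CPM after scaling the libraries to each other, and since a 3′ library yields about 1 fragment per transcript, they were compared between genes without dividing by length. Together the 10 genes made up 3704 ± 247 CPM in PBS (SD, n = 5), 3669 ± 667 with AAV-GFP (SD, n = 7) and 3247 ± 362 with AAV-miR-34b/c (SD, n = 7), that is 0.370%, 0.367% and 0.325% of the scaled counts. Ces3a, Ces1c and Ces3b held most of this in every group. In PBS livers Ces3a was at 1195 ± 167 CPM, Ces1c at 1036 ± 139 and Ces3b at 706 ± 67.2 (SD, n = 5), while Ces1b, the lowest, was at 35.3 ± 6.59. Ces3a and Ces1c were not separable in their order, since Ces3a was above Ces1c in 3 of 5 PBS and 5 of 7 AAV-GFP libraries, and Ces1c was above Ces3a in 4 of 7 AAV-miR-34b/c libraries. Ces3b was below both of them in each of the 19 libraries and above every other gene of the family.

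Below the leading genes the order in PBS was Ces2a, Ces1f, Ces2e, Ces1e, Ces1d, Ces1g and Ces1b. Each of these was above its next neighbour in all 5 PBS libraries, except Ces1d, which was above Ces1g in 3 of 5. In AAV-GFP livers Ces2e moved to the head of this set, at 196 ± 18.0 CPM, above Ces1f in 5 of 7 libraries, and in AAV-miR-34b/c livers it came after Ces2a, Ces1e and Ces1f, at 99.3 ± 18.1 CPM (SD, n = 7 each). With AAV-miR-34b/c Ces1f was above Ces2e in 3 of 7 libraries, so that these neighbours did not differ beyond their spread.

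**Figure D1:**
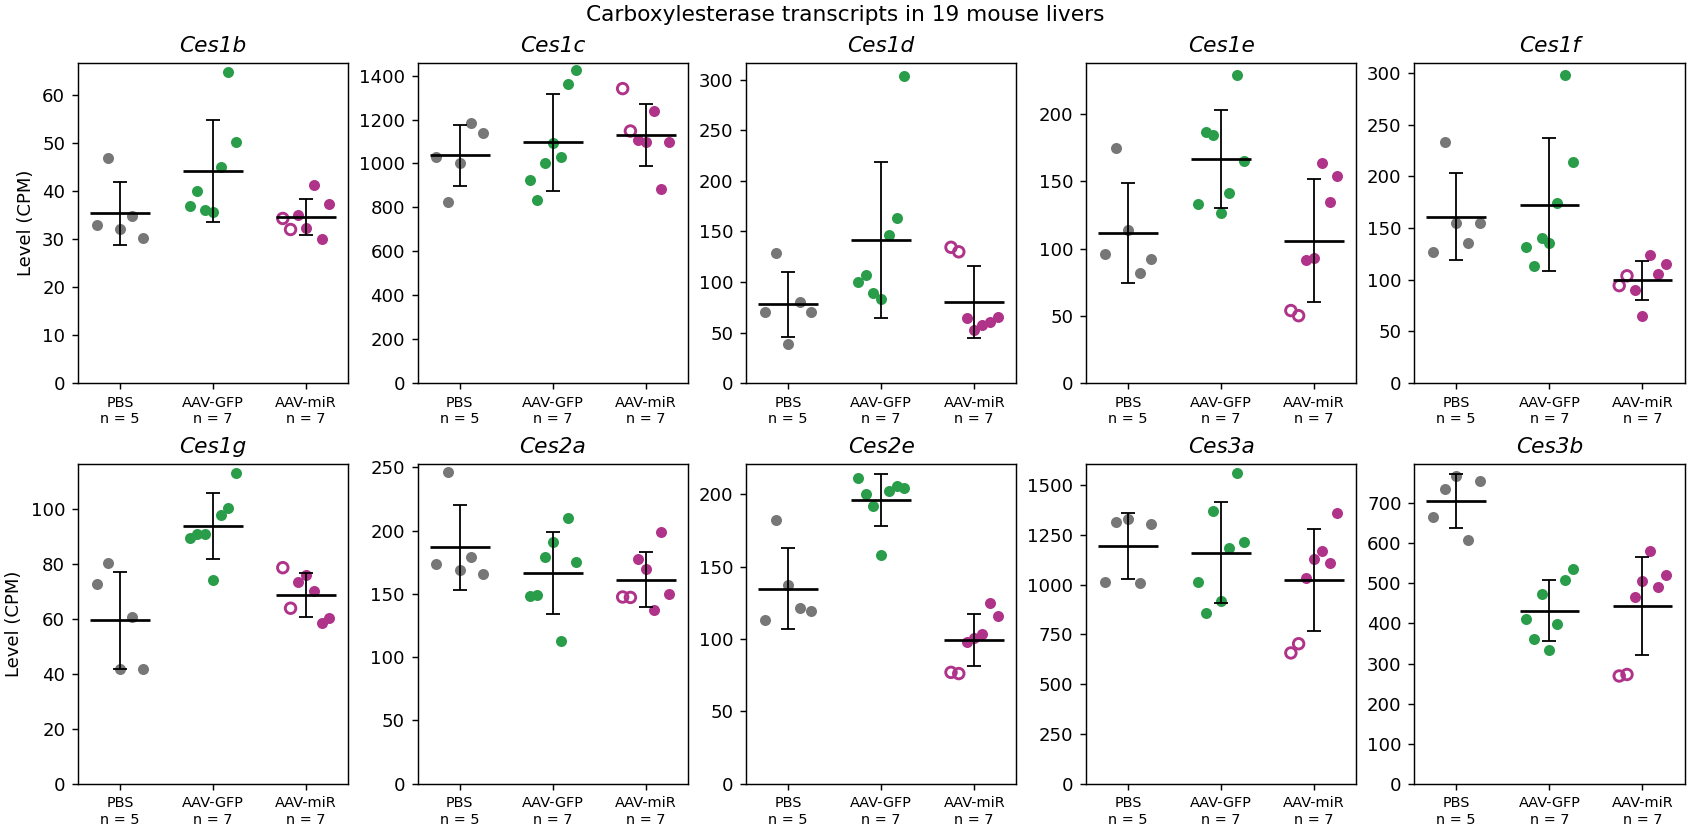
Level of each carboxylesterase (vertical axes, CPM, starting at 0) in every library of the 3 groups, with the mean as a line and the SD as a bar; open circles are AAV-miR-34b/c libraries 1 and 2. Ces2e lies higher in all 7 AAV-GFP than in all 7 AAV-miR-34b/c libraries, and Ces3b lies higher in all 5 PBS libraries than in all other libraries.

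The first comparison set AAV-GFP against PBS livers and asks what TAA with a control vector does to these genes. By edgeR's quasi-likelihood test with Benjamini-Hochberg adjustment over all 9522 genes tested, Ces1g and Ces2e were higher and Ces3b was lower, and the other 7 genes did not pass the threshold of 0.05. Thus 2 of the 10 genes were called higher, where 7.54% of all genes tested were called higher, and 1 of 10 was called lower, where 5.19% of all were. At an unadjusted p under 0.05, 4 were higher and 1 lower, against 16.2% and 13.5% of all. DESeq2 called 4 higher, against 7.64% of the genes to which it gave an adjusted p, and limma-voom 4, against 14.2%, and each called 1 lower, against 4.81% and 14%. The median log2 fold change of the 10 genes was 0.21, against -0.0090 for all genes tested. Since these are bulk livers, fewer cells of a type and less RNA per cell cannot be told apart for any of the genes.

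Ces2e belongs to the subfamily of human CES2, an enzyme that hydrolyses many ester drugs. Its level was 113, 182, 137, 121 and 119 CPM in PBS libraries 1 to 5, and 158, 202 and 212 CPM as the lowest, median and highest of the AAV-GFP livers. Of the 7 AAV-GFP livers, 6 were above every PBS liver, and only AAV-GFP library 4, at 158, was below PBS library 2. Ces2e was 1.46-fold higher in AAV-GFP livers (log2 fold change 0.55 ± 0.15 SE, 95% confidence interval 0.22 to 0.87, adjusted p = 0.0269, edgeR), and the 2-sided exact permutation test of its mean log2 CPM gave p = 0.00253. The call was kept in 8 of 12 fits that each left out 1 library, and was lost without PBS 1, 4 or 5 or AAV-GFP 1. With 9 pairs summed its adjusted p was 0.349 (log2 fold change 0.49), and with 6 it was 0.239 (0.45).

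Ces1g, an esterase of hepatocytes that has been tied to the control of liver and blood lipids, was at 72.7, 80.3, 41.8, 60.6 and 41.8 CPM in PBS libraries 1 to 5. In AAV-GFP livers its lowest, median and highest values were 74.1, 90.9 and 113 CPM. Again 6 of 7 AAV-GFP livers were above all PBS livers, with AAV-GFP library 4 the exception. The fitted change was 1.57-fold (log2 fold change 0.66 ± 0.18 SE, 95% confidence interval 0.27 to 1.04, adjusted p = 0.0250, exact permutation p = 0.00253). The call was lost without PBS 3, 4 or 5 and kept in the other 9 of 12 fits, and the adjusted p was 0.227 with 9 pairs summed (log2 fold change 0.67) and 0.169 with 6 (0.59).

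Ces3b, one of the most abundant esterases of these livers, was at 666, 735, 767, 609 and 755 CPM in PBS libraries 1 to 5 and fell to a lowest, median and highest value of 333, 411 and 537 CPM in AAV-GFP livers. The groups did not overlap, and each AAV-GFP liver was below each PBS liver. The log2 fold change was -0.71 ± 0.16 SE (95% confidence interval -1.04 to -0.38, adjusted p = 0.00714), and the exact permutation p of 0.00126 is the smallest that 5 against 7 libraries can give. The call was kept in all 12 fits that left out 1 library, while the adjusted p was 0.215 with 9 pairs summed (log2 fold change -0.63) and 0.0796 with 6 (-0.70). Ces3a, whose coding sequence is so close to that of Ces3b, showed 1160 ± 253 CPM against 1195 ± 167, and its log2 fold change of -0.044 had an interval of -0.41 to 0.33.

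Among the genes that were not called, Ces1d and Ces1e had the largest estimates. Ces1d, the triacylglycerol hydrolase that supplies lipid for VLDL assembly, ranged from 39.1 to 129 CPM in PBS and from 83.1 to 303 CPM in AAV-GFP livers, with the highest value in AAV-GFP library 7. Its log2 fold change was 0.86 ± 0.30 SE (adjusted p = 0.0664, edgeR). Ces1e, also called egasyn for its binding of β-glucuronidase in the endoplasmic reticulum, ranged from 81.6 to 175 CPM in PBS and from 126 to 229 CPM with AAV-GFP (log2 fold change 0.58 ± 0.20 SE, adjusted p = 0.0628). Each passed the threshold without PBS library 2, which held the highest PBS value of both, at adjusted p = 0.0295 for Ces1d and 0.0127 for Ces1e, and DESeq2 called both (adjusted p = 0.0466 and 0.0474). The remaining intervals all contained 0, at -0.072 to 0.71 for Ces1b, -0.28 to 0.44 for Ces1c, the esterase that is secreted into mouse plasma, -0.37 to 0.56 for Ces1f and -0.52 to 0.19 for Ces2a.

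The second comparison set AAV-miR-34b/c against AAV-GFP livers, both after TAA, and asks what delivery of the microRNAs adds. Ces2e and Ces1f were lower and no gene was higher by edgeR's quasi-likelihood test over 9252 genes. This is 2 of 10 genes called lower, against 1.42% of all genes tested, and 0 of 10 called higher, against 1.95%. At an unadjusted p under 0.05, 6 of the 10 were lower and 0 higher in the same test, against 7.77% and 7.51% of all genes. DESeq2 called 3 lower and 0 higher, against 2.09% and 2.67% of all, and limma-voom with quality weights called 4 lower and 0 higher, against 4.25% and 4.54%. The median log2 fold change of the 10 genes was -0.41, against -0.0075 for all genes. Scaling by total counts alone moved the median of all genes tested to -0.20 here and to -0.13 in the comparison with PBS, and the calls over all genes from 180 higher and 131 lower to 119 and 505 here, and from 1131 and 906 to 730 and 1616 there. Under it all 10 estimates were below 0 here and 9 of 10 there, the exception being Ces1g at 0.063.

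For Ces2e the lowest, median and highest values of AAV-miR-34b/c livers were 76.1, 101 and 125 CPM, against 158, 202 and 212 CPM with AAV-GFP. The groups did not overlap, and the highest AAV-miR-34b/c liver was below the lowest AAV-GFP liver. Ces2e was 1.99-fold lower (log2 fold change -0.99 ± 0.14 SE, 95% confidence interval -1.28 to -0.71, adjusted p = 0.000382), with an exact permutation p of 0.000583, the smallest that 7 against 7 libraries allow. This call was kept in all 14 fits that left out 1 library, without AAV-miR-34b/c libraries 1 and 2 (log2 fold change -0.87, adjusted p = 0.000972) and with the 6 pairs summed (-0.93, adjusted p = 0.0281). With the planned 9 pairs summed the call was lost, with an estimate of -0.98 and an adjusted p of 0.0677.

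Ces1f, a second triacylglycerol hydrolase of the mouse liver, was at 65.3, 104 and 123.4 CPM as the lowest, median and highest of AAV-miR-34b/c livers, and at 114, 140 and 298 CPM with AAV-GFP. Of the AAV-miR-34b/c livers, 5 of 7 were below every AAV-GFP liver. Its log2 fold change was -0.80 ± 0.20 SE (95% confidence interval -1.22 to -0.37, adjusted p = 0.0381, exact permutation p = 0.00175). The call was kept in 7 of 14 fits that left out 1 library, and was lost without AAV-GFP 5, 6 or 7 or AAV-miR-34b/c 1, 3, 4 or 6. The adjusted p was 0.130 with 9 pairs summed (log2 fold change -1.02) and 0.178 with 6 (-0.85), and without AAV-miR-34b/c 1 and 2 it was 0.0407.

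Ces1g, Ces1d and Ces1e lay lower on average with AAV-miR-34b/c without passing the test. For Ces1g, 5 of 7 AAV-miR-34b/c livers were below every AAV-GFP liver, with a range of 58.4 to 78.7 CPM against 74.1 to 113 (log2 fold change -0.46 ± 0.13 SE, adjusted p = 0.0628, exact permutation p = 0.00175). It passed the threshold without AAV-miR-34b/c 1 and 2 (adjusted p = 0.0449), without AAV-GFP 4 (adjusted p = 0.0363) and with DESeq2 (adjusted p = 0.0150). Ces1d separated by library: AAV-miR-34b/c 1 and 2 were at 134 and 130 CPM, within the AAV-GFP range, and the other 5 were at 52.5 to 65.1 CPM, below all AAV-GFP livers. With all libraries its log2 fold change was -0.82 ± 0.30 SE (adjusted p = 0.162), and without these 2 libraries it was -1.26 (adjusted p = 0.0107).

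Ces1e showed the opposite arrangement, at 53.9 and 50.1 CPM in AAV-miR-34b/c 1 and 2 and at 91.7 to 164 CPM in the other 5. Its log2 fold change of -0.66 ± 0.24 SE (adjusted p = 0.169) became -0.40 without them (adjusted p = 0.209). The abundant Ces3 genes behaved in the same way within the group, with Ces3a at 657 and 703 CPM and Ces3b at 269 and 273 CPM in these 2 libraries, below the other 5. Between the groups, Ces3b had a log2 fold change of 0.032 (95% confidence interval -0.35 to 0.41) and Ces3a one of -0.19 (-0.56 to 0.19). The intervals were -0.27 to 0.35 for Ces1c, -0.35 to 0.25 for Ces2a and -0.69 to -0.026 for Ces1b, whose adjusted p was 0.273.

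**Figure D2:**
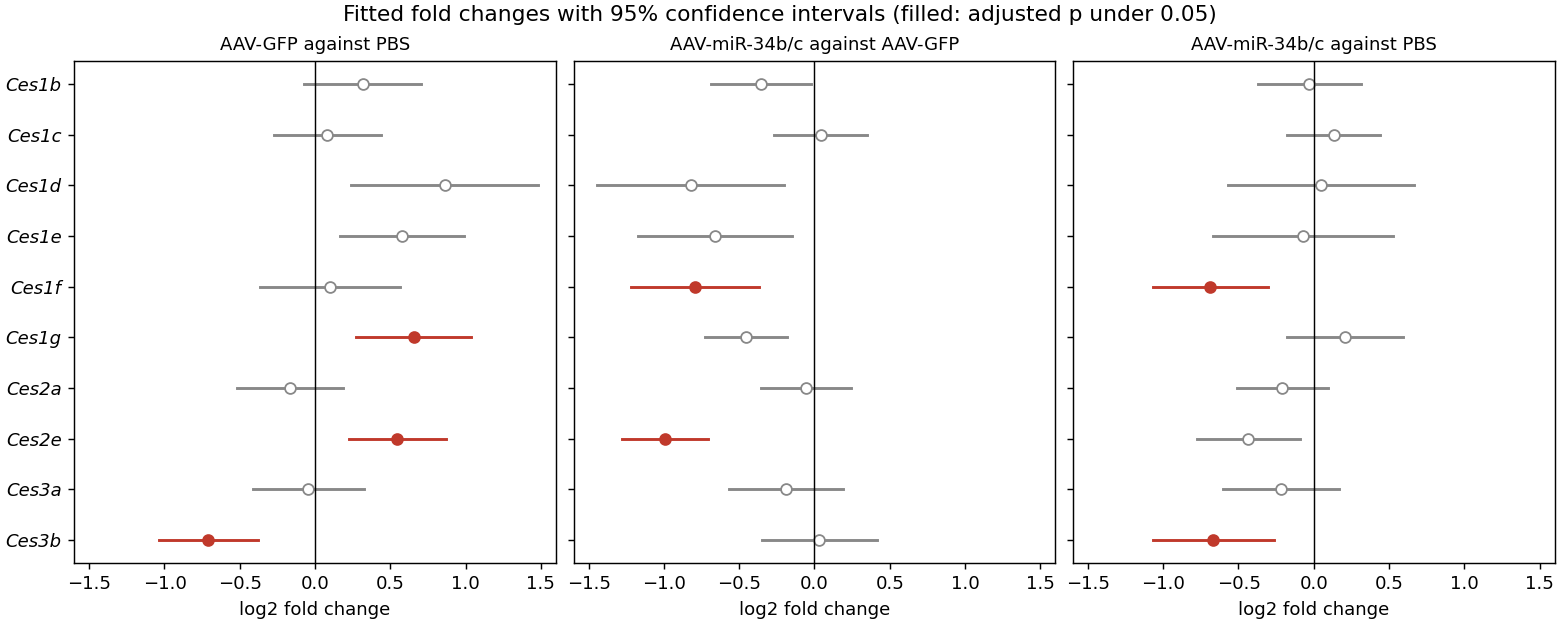
Fitted log2 fold change (horizontal axes) of each carboxylesterase in the 3 comparisons, with 95% confidence intervals; filled red points passed an adjusted p of 0.05 and open grey points did not. Ces2e lies to the right of 0 in AAV-GFP against PBS, at 0.55, and to the left in AAV-miR-34b/c against AAV-GFP, at -0.99, comparisons that share the AAV-GFP libraries.

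The last comparison set AAV-miR-34b/c against PBS livers. Ces1f and Ces3b were called lower and no gene higher among 9290 genes tested, that is 2 of 10 lower against 9.75% of all genes, and 0 of 10 higher against 12.2% of all. At an unadjusted p under 0.05 there were 3 lower and 0 higher, against 17.5% and 19.4% of all genes. DESeq2 called 2 lower and 0 higher, against 8.37% and 10.4% of all, and limma-voom 2 and 0, against 20.9% and 20.5%. The share of called genes was large over the whole transcriptome in this comparison, and the 2 lower genes are to be read against it. The median log2 fold change of the 10 genes was -0.14, against 0.016 for all genes.

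Ces1f was at 127, 233, 155, 135 and 155 CPM in PBS libraries 1 to 5, and all 7 AAV-miR-34b/c livers, the highest at 123.4 CPM, were below them. Its log2 fold change was -0.69 ± 0.18 SE (95% confidence interval -1.07 to -0.30, adjusted p = 0.0135, exact permutation p = 0.00126). Ces3b also did not overlap, with a lowest, median and highest value of 269, 490 and 580 CPM below the lowest PBS liver at 609 CPM. Its log2 fold change was -0.67 ± 0.19 SE (95% confidence interval -1.07 to -0.26, adjusted p = 0.0200, exact permutation p = 0.00505). Both calls were kept in all 12 fits that left out 1 library, and without AAV-miR-34b/c 1 and 2, where Ces3b was at -0.47 (adjusted p = 0.00786) and Ces1f at -0.69 (adjusted p = 0.00683). With close pairs summed, where both definitions give the same samples, neither passed, with adjusted p of 0.0866 for Ces1f (log2 fold change -0.78) and 0.138 for Ces3b (-0.66).

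Ces2e, in 5 of 7 AAV-miR-34b/c livers below every PBS liver, had a log2 fold change of -0.43 ± 0.16 SE against PBS (adjusted p = 0.0637). It passed as the only further gene with scaling by total counts (-0.56, adjusted p = 0.0370) and with all 3 groups in one fit (-0.44, adjusted p = 0.0453), where 3 of 10 were then lower, against 17.4% and 9.02% of all genes. Set side by side, the log2 fold changes of Ces2e were 0.55 for AAV-GFP against PBS, -0.99 for AAV-miR-34b/c against AAV-GFP and -0.43 for AAV-miR-34b/c against PBS. Those of Ces1g were 0.66, -0.46 and 0.21, and those of Ces3b were -0.71, 0.032 and -0.67 in the same order. The first and second of these comparisons share the AAV-GFP livers, and the first and last share the PBS livers, so the values are not independent of each other. For Ces1d the estimate against PBS was 0.051 (95% confidence interval -0.57 to 0.67) and turned to -0.39 without AAV-miR-34b/c 1 and 2, and for Ces1e it was -0.072 (-0.67 to 0.53) and turned to 0.19. For Ces1b, Ces1c, Ces1g, Ces2a and Ces3a all intervals against PBS contained 0, among them -0.18 to 0.59 for Ces1g and -0.60 to 0.17 for Ces3a.

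Ratios within a library do not depend on how the libraries are scaled, and those of the closest pairs of subfamilies 2 and 3 are given as a description, chosen after their levels had been seen and without a test. The ratio of Ces2e to Ces2a was 0.651 to 0.815 in PBS, with a median of 0.721, and 0.826 to 1.79 with AAV-GFP, with a median of 1.17. With AAV-miR-34b/c it was 0.517 to 0.772, with a median of 0.593. The AAV-GFP livers thus lay above both other groups without overlap, and the range of the AAV-miR-34b/c livers overlapped that of the PBS livers. The ratio of Ces3b to Ces3a had a median of 0.579 in PBS, 0.364 with AAV-GFP and 0.442 with AAV-miR-34b/c, and its lowest PBS value of 0.559 was above the highest value of 0.496 among all TAA-treated livers. AAV-miR-34b/c libraries 1 and 2, which stood apart in the levels of both Ces3 genes, lay within the range of the others in this ratio. Their ratios of Ces2e to Ces2a, 0.522 and 0.517, were below all others of the group, the lowest of which was 0.553.

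**Figure D3:**
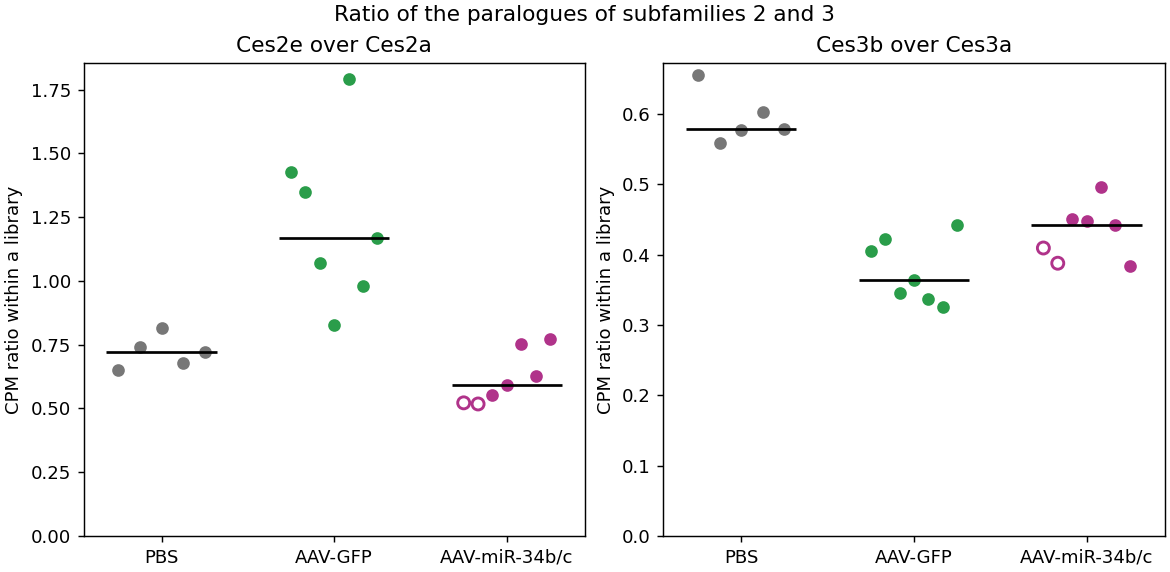
Ratio of CPM of Ces2e to Ces2a (left) and of Ces3b to Ces3a (right) in each library, with group medians as lines; open circles are AAV-miR-34b/c libraries 1 and 2. AAV-GFP livers are above both other groups on the left, from 0.826 to 1.79, and PBS livers are above both other groups on the right, from 0.559 to 0.656.

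As shares of the summed level of the 10 genes, Ces3b made up 19.1 ± 1.11% in PBS, 11.8 ± 0.886% with AAV-GFP and 13.5 ± 2.66% with AAV-miR-34b/c (SD). Ces2e made up 3.62 ± 0.576%, 5.47 ± 0.950% and 3.05 ± 0.410%, and Ces1g 1.62 ± 0.502%, 2.59 ± 0.321% and 2.14 ± 0.371% in the same order. The 6 Ces1 genes together held 40.1 ± 3.47% in PBS, 46.6 ± 3.37% with AAV-GFP and 47.3 ± 7.73% with AAV-miR-34b/c, and the pair of Ces3 genes 51.2 ± 3.48%, 43.3 ± 3.32% and 44.6 ± 7.54%. Ces1c carried most of the Ces1 share, at 28.2%, 29.9% and 35.3% of the family in the 3 groups. Without AAV-miR-34b/c 1 and 2 the shares of the other 5 livers of that group were 14.98 ± 0.658% for Ces3b, 3.18 ± 0.421% for Ces2e, 1.98 ± 0.284% for Ces1g and 31.7 ± 2.80% for Ces1c, those of the Ces1 and Ces3 genes were 43.0 ± 2.54% and 48.9 ± 1.96%, and the family summed to 3423 ± 239 CPM (SD, n = 5). Because of its abundance, the Ces1 counts summed to 1 value moved less than the median of the 6 genes, with a log2 fold change of 0.21 against a median of 0.45 for AAV-GFP against PBS, and of -0.18 against -0.56 for AAV-miR-34b/c against AAV-GFP.

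**Figure D4:**
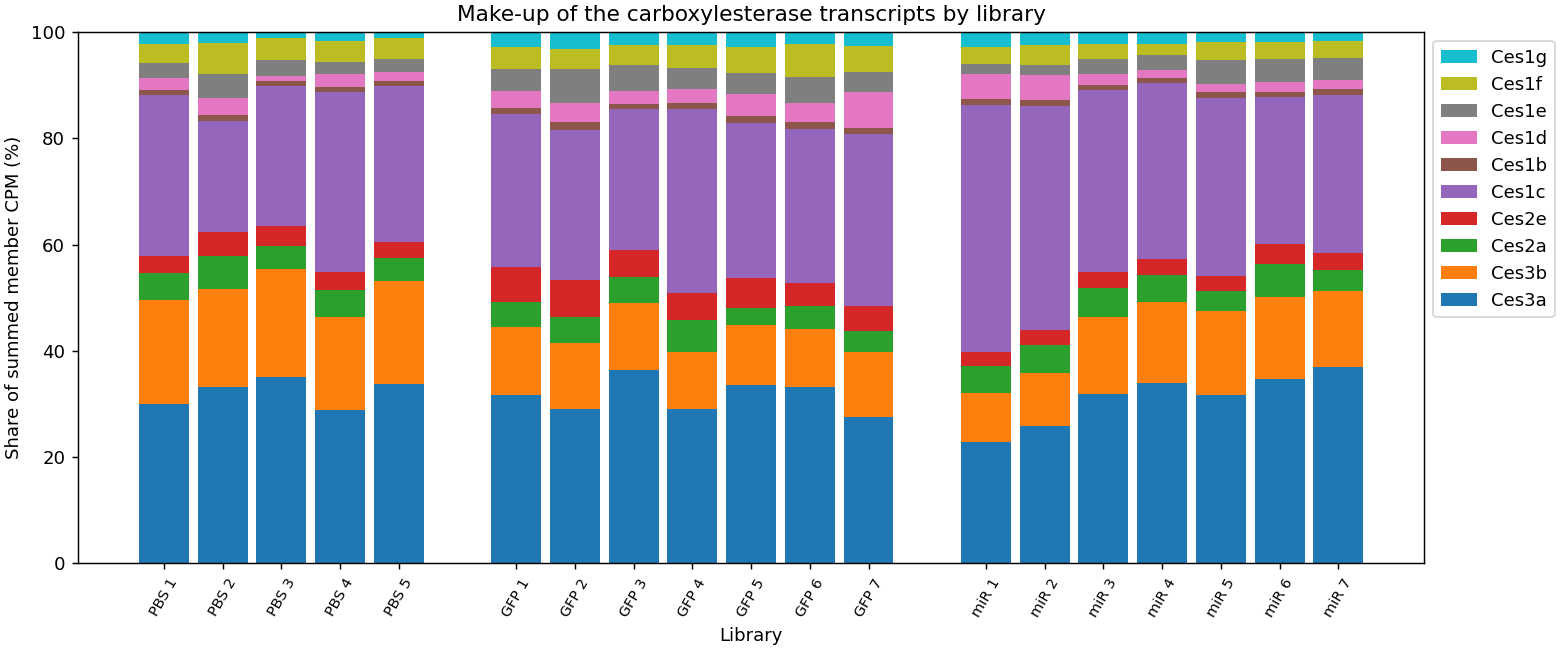
Share of the summed CPM of the 10 carboxylesterases (vertical axis, %) taken by each gene in every library (horizontal axis). The Ces3b band is 19.1% of the family on average in PBS and 11.8% with AAV-GFP, and among all libraries the Ces3a and Ces3b bands are narrowest in AAV-miR-34b/c libraries 1 and 2.

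Within groups the genes varied together in part. After the group means were removed from log2 CPM, 37 of the 45 pairs of genes had a positive Pearson r over the 19 libraries, with a median of 0.35. These values describe libraries that share depth and scaling, with those of close pairs entered separately, and carry no test. The same share over pairs of other genes is not given beside them, so they are not read as particular to the family. Ces3a and Ces3b had the highest r, 0.91, followed by Ces1e and Ces2e with 0.83, Ces1b and Ces1f with 0.82 and Ces1e and Ces3b with 0.81. Some of this rested on AAV-miR-34b/c libraries 1 and 2. Over the other 17 libraries the r of Ces1e and Ces3b was 0.54 and that of Ces2e and Ces3b 0.37, down from 0.69, while that of Ces1b and Ces1f was 0.84 and that of Ces3a and Ces3b 0.82. Ces1d and Ces3b went from -0.28 to 0.41. The lowest r was that of Ces1c and Ces2e, at -0.47, and it was -0.42 over the 17 libraries. Ces1b and Ces1c, with their similar promoters and 3′ ends, had an r of 0.36.

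**Figure D5:**
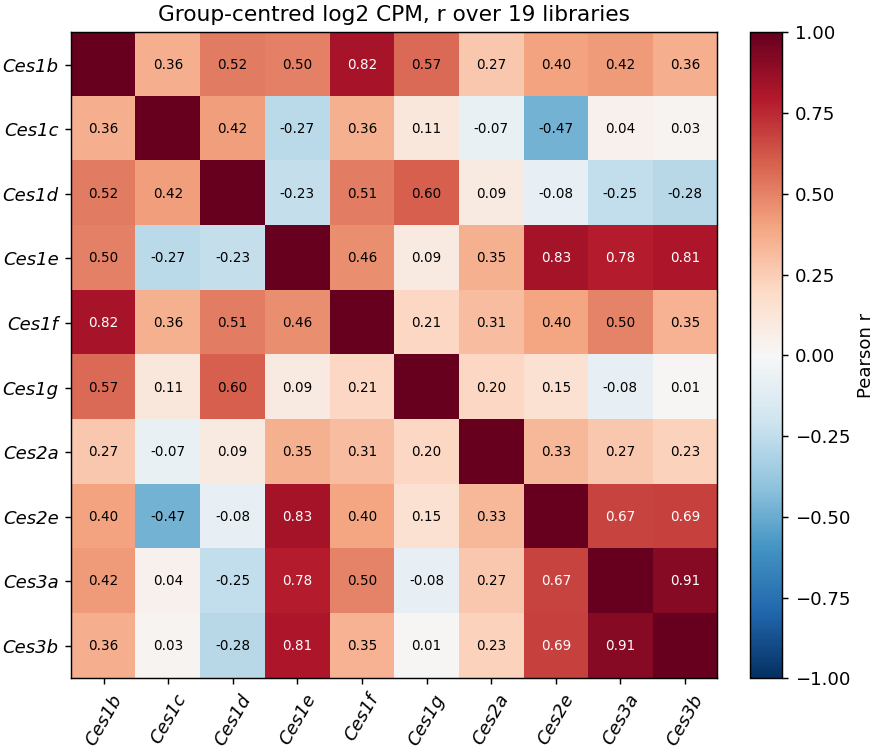
Pearson r between the carboxylesterases (rows and columns) over 19 libraries after removing group means, from blue (-1) through white (0) to red (1). The block of Ces1e, Ces2e, Ces3a and Ces3b holds values from 0.67 to 0.91, and Ces1c has the lowest value, -0.47, with Ces2e.

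Of the 4580 other genes with a mean of at least 20 CPM, those most like Ces3a by this measure were Ces3b (r = 0.91), Cyp2f2, a periportal cytochrome P450 (0.90), and Proc, which encodes protein C (0.86). Those most like Ces3b were Ces3a, Cyp2u1 (0.87) and Ugt2b1, a glucuronosyltransferase (0.85). Those most like Ces1c were Eif3m (0.92), a translation initiation factor subunit, Tor1a (0.91) and Mrpl54 (0.90), a mitochondrial ribosomal protein. Without AAV-miR-34b/c 1 and 2 (17 libraries) the r of Ces3a was 0.82 with Cyp2f2 and 0.80 with Proc, that of Ces3b fell to 0.66 with Cyp2u1 and 0.63 with Ugt2b1, and those of Ces1c were 0.92, 0.94 and 0.90.

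The remaining carboxylesterases of the mouse were scarce in these livers. Ces1a, Ces1h, Ces2b, Ces2c, Ces2f, Ces2h and Ces5a had at most 15 counts in any library and were not tested. Ces2g was at 19.8 ± 4.91 CPM in PBS, 21.5 ± 2.66 with AAV-GFP and 19.97 ± 4.45 with AAV-miR-34b/c (SD) and was not called. Ces4a, with 0 to 30 counts per library, was lower than in PBS with AAV-GFP (log2 fold change -1.50 ± 0.47 SE, adjusted p = 0.0370) and with AAV-miR-34b/c (-1.78 ± 0.58 SE, adjusted p = 0.0336). It had 11 to 30 counts in PBS, against medians of 8 with AAV-GFP and 5 with AAV-miR-34b/c. Between the TAA-treated groups it did not pass the count filter and was not tested. It thus passed the filter through the PBS libraries, where it was high, which limits both calls. With 9 pairs summed the estimates of Ces4a were -1.45 (adjusted p = 0.290) and -1.80 (adjusted p = 0.0885), with 6 they were -1.54 (adjusted p = 0.138) and -1.80, and without AAV-miR-34b/c 1 and 2 it was -1.51 against PBS (adjusted p = 0.0252).

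The calls of the other lists that follow come from the fits with every library as its own sample, and the counts of calls kept, with close pairs summed or without AAV-miR-34b/c 1 and 2, were added after seeing the data. With pairs summed fewer samples enter, the calls over all genes went from 1212, 311 and 2037 to 131, 16 and 331 with 9 pairs and to 227, 87 and 331 with 6, and each call of these lists that was lost kept its sign. The lists' counts with every library stand beside 7.54% of all genes called higher and 5.19% lower with AAV-GFP against PBS, 1.95% and 1.42% with AAV-miR-34b/c against AAV-GFP, and 12.2% and 9.75% with AAV-miR-34b/c against PBS. Among 34 other ester hydrolases tested, 6 were higher and 0 lower with AAV-GFP than in PBS by edgeR, with 8 higher and 3 lower at an unadjusted p under 0.05. The 4 with the smallest adjusted p were Lpl, lipoprotein lipase (log2 fold change 1.43 ± 0.28 SE, adjusted p = 0.00420), Faah, fatty acid amide hydrolase (0.63 ± 0.16), Lipa, lysosomal acid lipase (0.67 ± 0.17), and Abhd4 (0.68 ± 0.20). Of 34 tested in AAV-miR-34b/c against AAV-GFP livers, 0 were higher and 3 were lower, with 1 higher and 9 lower at an unadjusted p under 0.05. These were Pon1, the paraoxonase of high density lipoprotein (-0.72 ± 0.16 SE, adjusted p = 0.0129), Lpl (-0.97 ± 0.24) and Bche, butyrylcholinesterase (-0.52 ± 0.14). DESeq2 and limma-voom each called 4 of this list there. Compared to PBS, AAV-miR-34b/c livers had 4 higher and 5 lower of 34, where 12.2% and 9.75% of all genes were, led by Lypla1, an acyl protein thioesterase (-1.12 ± 0.26 SE), Nceh1, a cholesteryl ester hydrolase (-0.83 ± 0.20), Pafah2 (0.69 ± 0.17) and Lypla2 (0.88 ± 0.22). With close pairs summed, by either definition, only Lpl with AAV-GFP against PBS was still called of these 6, 3 and 9 calls (adjusted p = 0.0376 with 9 pairs), and without AAV-miR-34b/c 1 and 2 all 3 and all 9 were kept, among 5 lower against AAV-GFP and 6 higher and 9 lower against PBS. Without these libraries 720 of all 9543 genes tested were called against AAV-GFP and 3878 of 9098 against PBS, higher and lower together.

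Of 24 genes of VLDL assembly and lipid droplets tested, 2 were higher and 1 lower with AAV-GFP than in PBS. Cideb, which acts in VLDL lipidation, rose (0.80 ± 0.17 SE), as did G0s2, an inhibitor of adipose triglyceride lipase (1.23 ± 0.35), and Fitm1, a lipid droplet protein, fell (-1.91 ± 0.26). In AAV-miR-34b/c against AAV-GFP livers only Soat2, which esterifies cholesterol, was called (-0.99 ± 0.21 SE, adjusted p = 0.0108). Compared to PBS, 5 were higher and 3 lower, led by Fitm1 (-3.002 ± 0.306), Tm6sf2 (1.08 ± 0.19), Cideb (0.76 ± 0.14) and Hsd17b13 (0.57 ± 0.14). With 9 pairs summed 1 of 3, 0 of 1 and 2 of 8 of these calls were kept, which were Fitm1 in both comparisons with PBS and Tm6sf2, and with 6 pairs Soat2 was kept too (adjusted p = 0.0432). All of the calls that involve AAV-miR-34b/c were kept without its libraries 1 and 2, where 7 of 24 were higher and 5 lower than in PBS. In that fit 3878 of all 9098 genes tested were called against PBS, higher and lower together.

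Of the transcription factors and partners known to act on esterase and drug metabolism genes, 4 of 27 tested were higher and 1 lower with AAV-GFP than in PBS. Hnf4a, the master regulator of hepatocyte genes (0.86 ± 0.18 SE), and Nr0b2, a corepressor (1.86 ± 0.38), rose, and Por, the electron donor of cytochromes P450, fell (-1.28 ± 0.16). In the comparison of both TAA-treated groups, edgeR called 0 of 26, with 2 higher and 2 lower at an unadjusted p under 0.05, DESeq2 called 1 and limma-voom 2. Compared to PBS, 3 were higher and 3 lower of 26, which is near the 12.2% and 9.75% of all genes and no result about this list, and those with the smallest adjusted p were Hnf4a (1.21 ± 0.14), Nr1i3, the constitutive androstane receptor (-0.998 ± 0.232), Nr1h4, the bile acid receptor (-0.80 ± 0.20), and Por (-0.87 ± 0.24). With 9 pairs summed only Por was kept of the 5 calls with AAV-GFP, and with 6 pairs Nr0b2 was kept too (adjusted p = 0.0462). By either definition only Hnf4a was kept of the 6 with AAV-miR-34b/c against PBS. Of these 6 calls 5 were kept without libraries 1 and 2, the exception being Nr0b2 (adjusted p = 0.0542). Without them 1 of 27 was higher than with AAV-GFP, and 8 of 25 were higher and 3 lower than in PBS, where 21.1% and 21.5% of all genes were.

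Other groups of genes moved between the same livers. Of 22 acute phase genes tested, 5 were lower with AAV-GFP than in PBS, led by Apcs (-2.12 ± 0.41 SE), Saa4 (-0.97 ± 0.19) and Orm3 (-2.85 ± 0.65). In AAV-miR-34b/c livers 20 were higher than with AAV-GFP and 15 higher than in PBS, and the 23 genes listed summed to 37159 to 80049 CPM in PBS, 27358 to 66408 with AAV-GFP and 59038 to 209680 with AAV-miR-34b/c. The 3 neutrophil markers tested (S100a8, S100a9 and Retnlg) were higher with AAV-miR-34b/c than in either other group. Of the 6 listed, only 2 passed the count filter with AAV-GFP against PBS. The filter could thus admit a marker through the AAV-miR-34b/c libraries where it was high, so the count of 3 carries no weight of its own. The 6 markers listed summed to 62.0 to 1916 CPM, against 13.7 to 74.7 with AAV-GFP and 16.9 to 82.0 in PBS. Against AAV-GFP, 2 of the 20 acute phase and 0 of the 3 neutrophil calls were kept with 9 pairs summed, 10 and 3 with 6 pairs, and 19 and 3 without AAV-miR-34b/c 1 and 2. The median log2 fold change of the 20 was 1.72 with every library, 1.68 with 9 pairs and 1.44 without these libraries, and that of the 3 was 4.31, 3.82 and 2.69. Against PBS, 6 of 15 and 1 of 3 were kept with pairs summed. Without these libraries 12 and 2 were kept, and Retnlg was not tested. Of the 5 acute phase calls with AAV-GFP 0 were kept with 9 pairs and 1 with 6.

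Some genes of the circadian clock were called against PBS, and 9 in each comparison were not. With AAV-GFP 3 of 15 tested were higher and 3 lower, among them Per3 (-2.59 ± 0.50 SE), Clock (1.03 ± 0.20), Arntl (3.15 ± 0.82), which had a mean of 0.393 CPM in PBS, and Nr1d1 (1.31 ± 0.34). At that level in PBS, Arntl passed the count filter only through the TAA-treated libraries, where it was high, which limits its call in both comparisons with PBS. With AAV-miR-34b/c 2 of 14 were higher than in PBS and 3 lower, where 12.2% and 9.75% of all genes were, led by Arntl (3.29 ± 0.92 SE), Per3 (-2.23 ± 0.69), Per1 (-0.84 ± 0.26) and Clock (0.87 ± 0.26). Between the TAA-treated groups 0 of 12 were called by edgeR, DESeq2 and limma-voom, with 3 lower at an unadjusted p under 0.05. The 16 genes listed summed to 382 to 621 CPM in PBS, 202 to 455 with AAV-GFP and 181 to 583 with AAV-miR-34b/c. With 9 pairs summed only Per3 was kept of the 6 calls with AAV-GFP, with 6 pairs Per3 and Clock, and none of the 5 with AAV-miR-34b/c, of which 4 were kept without libraries 1 and 2, where Arntl was not tested.

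Of the stellate cell markers, 3 of 8 tested were higher with AAV-GFP than in PBS and 2 of 6 were lower with AAV-miR-34b/c than with AAV-GFP, the collagens Col1a1 (-1.92 ± 0.29 SE, adjusted p = 0.000898) and Col3a1 (-1.46 ± 0.25 SE, adjusted p = 0.00305), with a summed level of 336 to 520 CPM in PBS, 394 to 504 with AAV-GFP and 244 to 466 with AAV-miR-34b/c. Of the macrophage markers, 5 of 12 were lower with AAV-GFP than in PBS and 2 of 11 were higher with AAV-miR-34b/c than with AAV-GFP, Cd5l (0.86 ± 0.17 SE) and C1qb (0.94 ± 0.19), with a summed level of 533 to 1020, 449 to 731 and 644 to 925 CPM. Against PBS, 0 of 7 stellate markers (1 lower at an unadjusted p under 0.05, 0 by DESeq2, 2 by limma-voom) and 2 of 12 macrophage markers, both lower, were called with AAV-miR-34b/c by edgeR. Without AAV-miR-34b/c 1 and 2 calls were also gained, to 2 of 5 stellate markers lower than in PBS and 4 of 7 lower than with AAV-GFP, and to 4 of 12 macrophage markers lower than in PBS, where 21.5% of all genes were lower than in PBS and 4.08% lower than with AAV-GFP.

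Of the pericentral markers, 3 of 9 tested were lower with AAV-GFP than in PBS and 4 of 8 were lower with AAV-miR-34b/c than in PBS. Between the TAA-treated groups 1 of 8 was called, Glul, glutamine synthetase, which was higher with AAV-miR-34b/c (0.78 ± 0.20 SE, adjusted p = 0.0390). Of the 7 not called, 2 had estimates above 0 (Slc1a2 0.94, adjusted p = 0.0536, and Oat 0.0021) and 5 below, from -0.25 for Cyp2e1 to -0.46 for Lgr5, and the median of the 8 was -0.28. Their summed level was 4713 to 5196 CPM in PBS, 2085 to 4572 with AAV-GFP and 3146 to 3676 with AAV-miR-34b/c. Of 10 periportal markers, 2 were higher and 0 lower with AAV-GFP than in PBS by edgeR (4 and 1 at an unadjusted p under 0.05, 3 called by DESeq2 and 3 by limma-voom), Aldh1b1 (1.69 ± 0.30 SE) and Gls2 (0.71 ± 0.17). With AAV-miR-34b/c 3 were higher than in PBS, among them Aldh1b1 (1.597 ± 0.189 SE), and 1 was lower, Cps1 (-0.90 ± 0.20), the entry enzyme of the urea cycle. Between the TAA-treated groups 0 were called by edgeR (1 lower at an unadjusted p under 0.05, 0 by DESeq2, 1 by limma-voom), and their summed level was 4891 to 5861 CPM in PBS, 5181 to 6690 with AAV-GFP and 5065 to 6429 with AAV-miR-34b/c.

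Of 8 endothelial markers, 0, 0 and 1 were called in the 3 comparisons in order, by edgeR (1, 0 and 1 at an unadjusted p under 0.05, 0, 0 and 1 by DESeq2, 1, 0 and 1 by limma-voom). Of 11 hepatocyte markers, 1, 1 and 4 were higher in the same order. In both comparisons with PBS 1 of 2 cholangiocyte markers tested was higher, Spp1 with AAV-GFP and Sox9 with AAV-miR-34b/c. DESeq2 called 5, 1 and 1 of the 7 listed in the 3 comparisons in order, and limma-voom 2, 0 and 1. The 7 summed to 19.1 to 41.1 CPM in PBS, 54.0 to 96.2 with AAV-GFP and 49.6 to 121 with AAV-miR-34b/c. The 1 pancreatic acinar marker tested, Cela1, was lower in both comparisons with PBS. With 9 pairs summed 0 of 1, 0 of 1 and 1 of 4 hepatocyte calls were kept, with the call of Spp1 but not that of Sox9, and that of Cela1 only with AAV-miR-34b/c. With 6 pairs Fgb was kept between the TAA-treated groups, Hnf4a with AAV-miR-34b/c against PBS, no cholangiocyte call and both of Cela1.

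With close pairs summed, by either definition, 1 of 3 stellate, 1 of 5 macrophage, 2 of 3 pericentral and 1 of 2 periportal calls of AAV-GFP against PBS were kept. Of those of AAV-miR-34b/c against PBS, 0 of 2 macrophage, 1 of 4 pericentral and 1 of 4 periportal calls were kept, and all of them without AAV-miR-34b/c 1 and 2. Of the calls between the TAA-treated groups, 0 of the 2 stellate, 2 macrophage and 1 pericentral were kept with 9 pairs summed, both stellate calls were kept with 6 pairs, and all were kept without AAV-miR-34b/c 1 and 2. Without these libraries 2 of 9 pericentral markers were higher than with AAV-GFP, 1 of 10 periportal and 1 of 8 endothelial markers were lower, and 4 of 10 periportal markers were higher and 2 lower than in PBS. In the same fits 720 of all 9543 genes tested were called against AAV-GFP and 3878 of 9098 against PBS, higher and lower together. The part of these groups in the carboxylesterase results was not tested.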

How the data were processed

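Mouse livers were profiled in 19 libraries by QuantSeq 3′ mRNA sequencing with single-end reads. The authors deposited raw counts per gene for each library, made with the provider's pipeline, for which the submitters' processing notes name STAR and mm10. Neither the gene annotation nor whether strand or molecular identifiers were used in counting is given in the sources used here. Per the file headers each column is 1 library, and all columns were mapped to samples by title, with 0 left over. Symbols were matched to 30934 of 31053 gene IDs.

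The genes described, the lists and the tests were chosen with earlier results of these data known. The whole table was filtered (filterByExpr, count of at least 10, total of at least 15), scaled by TMM and tested by quasi-likelihood with edgeR 4.0.16 (R 4.3.3), separately for each pair of groups. The 2-sided p-values were adjusted by Benjamini-Hochberg over every gene tested, and genes under 0.05 were called. All 10 carboxylesterases passed the filter in each comparison. Standard errors came from the fitted model with its posterior dispersion. The 2-sided exact permutation tests of mean log2 CPM (prior count 2, 30 tests) were unadjusted. Fold changes are fitted values, not ratios of means. Totals of 2214073 to 5208405 counts gave 72 to 5405 counts per gene and library for the 10 genes.

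Named genes were all 10 carboxylesterases, up to 4 called genes per list and comparison with the smallest adjusted p, and the 3 genes most correlated with each of the 3 highest members. A gene that this rule names among the regulators is not reported here. Alternatives were other scalings, filters and samples, DESeq2 1.42.0, limma 3.58.1 with voom quality weights, a replicate block, close pairs summed and each library left out. Annotation was GENCODE vM21 (GRCm38), and identity came from global alignments in Biopython 1.88 over alignment columns including gaps. Protein sequences were not used here. The scripts were tested on simulated data.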

Additional observations from a re-analysis of the deposited data

Results flagged for a closer look

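In 33 groups of values (the totals and log2 CPM of the 10 genes in each of 3 groups), 3 had a highest or lowest library whose gap to its neighbour was large against the range of the group, where chance gives about 1.65 of 33. The total of AAV-GFP library 5 was 4383805 counts, against 3239809 in the next. Ces2a in PBS library 2 was at a log2 CPM of 7.95, against 7.49 in the next. Ces2e in AAV-GFP library 4 was the lowest of its group at 7.31, against 7.59 in the next, and this is the library that overlapped the PBS livers.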

How the results depend on the processing

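With close pairs of libraries summed, by the planned definition (9 pairs) and by one chosen after seeing the data (6 pairs), no carboxylesterase was called higher or lower with AAV-GFP against PBS (0 and 0) or lower with AAV-miR-34b/c against PBS (0), and 0 (9 pairs) or 1 (6 pairs, Ces2e) was lower against AAV-GFP. Fewer samples enter these fits, and calls over all genes fell too, to 0.765% higher and 0.503% lower with AAV-GFP against PBS (9 pairs; 1.41% and 0.846% with 6), 1.21% lower with AAV-miR-34b/c against PBS and 0.0481% (9 pairs) or 0.306% (6) lower against AAV-GFP, so 0 of 10 is no result about these genes. The cause of the other differences was not tested. DESeq2 and limma-voom each called 4 higher with AAV-GFP against PBS (7.64% and 14.2% of all genes). Lower with AAV-miR-34b/c against AAV-GFP were 4 by total counts alone (5.46% of all genes), 4 by limma-voom (4.25%) and 4 without AAV-miR-34b/c 1 and 2 (4.08%), which was also chosen after seeing the data. Leaving out 1 library each gave 0 to 4 higher against PBS with AAV-GFP (4.46% to 10.8% of all genes) and 1 to 3 lower with AAV-miR-34b/c against AAV-GFP (0.918% to 1.64%). Summing the Ces1 counts moved their median from 0.45 to 0.21 and from -0.56 to -0.18.

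Replicate numbers were not taken to pair the samples (same-numbered r from -0.20 to 0.41, -0.45 to 0.32 and -0.39 to 0.48 for AAV-GFP against PBS, AAV-miR-34b/c against AAV-GFP and AAV-miR-34b/c against PBS). These r alone do not settle whether the numbers stand for a pairing. The replicate block moved all genes called from 1212 to 3136, from 311 to 142 and from 2037 to 945, and left 1 carboxylesterase lower against AAV-GFP, with Ces1f lost (edgeR adjusted p = 0.0736). With AAV-GFP against PBS it called 3 higher, against 16.9% of all genes, with Ces1e gained (adjusted p = 0.0123), and 1 lower, against 16%. Under the block estimates changed sign for Ces1c (-0.073) and Ces1f (-0.18) in AAV-GFP against PBS, Ces3b (-0.0052) against AAV-GFP and Ces1b (0.0070) in AAV-miR-34b/c against PBS.

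Other changes of sign were all in genes not called. By total counts they were Ces3a (0.0064; log2 CPM difference 0.0015) in AAV-GFP against PBS, Ces1c (-0.15; -0.14) and Ces3b (-0.13; -0.20) in AAV-miR-34b/c against AAV-GFP, and Ces1c (-0.0081; -0.012) and Ces1d (-0.13; -0.093) against PBS. With pairs summed they were Ces3a (0.035), Ces1c (-0.12 and -0.039), Ces3b (-0.040) and Ces1d (-0.14 both times), by limma-voom Ces1c (-0.042), Ces1f (-0.0096), Ces2a (0.022), Ces1b (0.050), Ces1d (-0.16) and Ces1e (0.13), and without AAV-miR-34b/c 1 and 2 Ces1c (-0.027), Ces1d (-0.39) and Ces1e (0.19). Leaving out 1 library gave -0.084 to 0.28 for Ces1f and -0.13 to 0.026 for Ces3a (AAV-GFP against PBS), -0.014 to 0.11 for Ces1c, -0.13 to 0.0097 for Ces2a and -0.048 to 0.12 for Ces3b (against AAV-GFP), and -0.082 to 0.093 for Ces1b, -0.13 to 0.31 for Ces1d and -0.21 to 0.15 for Ces1e (against PBS). Depth limits Ces1b most, at 72 counts in its lowest library.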
